A study of Mus musculus with 12 samples.

Results

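A set of 10 genes of the small leucine-rich proteoglycan (SLRP) family was followed through the developing forelimb skeleton: *Dcn*, *Bgn* and *Aspn* of class I, *Fmod*, *Lum*, *Kera*, *Prelp* and *Omd* of class II, and *Ogn* and *Epyc* of class III. They were chosen by gene symbol and are 10 of the 36186 gene rows of the RNA-Seq data. Each symbol had 1 row.

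The 12 libraries came from mouse embryos at E15.5 on a mixed 129/CD-1 background, and cells were taken by laser capture microdissection (LCM) from the forelimb zeugopod, the segment that holds the radius and ulna. In WT embryos the resting, the proliferative and the hypertrophic chondrocytes were captured separately, giving 3 libraries per compartment. Another 3 libraries came from *aadd* embryos, which are homozygous for frameshift mutations in *Hoxa9*, *Hoxa10*, *Hoxa11*, *Hoxd9*, *Hoxd10* and *Hoxd11*. The *aadd* zeugopod is small, so its whole chondrocyte population was captured together. Samples of both genotypes were mostly chondrocytes, with some flanking perichondrium. The deposited labels call the hypertrophic samples hyperproliferative and assign the *aadd* samples to the resting compartment. The names WT resting, WT proliferative, WT hypertrophic and *aadd* are used here. The comparison of *aadd* with WT resting sets a whole mutant population beside 1 WT compartment.

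SLRPs are secreted matrix proteins built around a chain of leucine-rich repeats. Several of them bind collagen fibrils and affect fibril diameter and spacing, and some bind growth factors of the TGF-β family. In the growth plate, epiphycan is best known from cartilage, whereas decorin, biglycan, fibromodulin and lumican are shared with tendon, perichondrium and other connective tissue.

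Expression is given as NRPKM, the authors' normalized RPKM. RPKM scales reads to transcript length and library size, so levels of different genes can be set side by side. The removal of duplicate reads can compress high levels, and the further normalization between libraries is not given in the sources used here. Fold change (FC) was computed on log2(NRPKM + 0.1). A gene was called changed when its unadjusted limma *P* did not exceed 0.05 and its FC reached 2 (between WT compartments) or 1.5 (between *aadd* and WT resting). The *P* printed is the Benjamini-Hochberg adjusted value from limma, which exceeds 0.05 for most of these calls. It was taken over the 10936 genes that reached 5 NRPKM in 3 or more libraries. Of the 10 SLRP genes, 9 passed this filter and *Kera* did not.

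The hypertrophic libraries did not form one set. Replicate 1 stood apart from replicates 2 and 3 in the markers of cell types. The summed level of 10 chondrocyte markers was 2140 NRPKM in hypertrophic replicate 1, against 363 and 497 in replicates 2 and 3 and 2150 to 3810 in the resting and proliferative libraries. The 8 osteoclast markers summed to 36.3 NRPKM in replicate 1 and to 1240 and 894 in the others, the 8 endothelial markers to 19.5 against 272 and 192, and the 8 osteoblast markers to 1020 against 2420 and 2860. The 8 hypertrophic chondrocyte markers were high in all hypertrophic libraries, at 1210 to 1640 NRPKM, against 547 to 721 in proliferative, 58.4 to 96.5 in resting and 38 to 62.7 in *aadd* libraries. For the tested genes of the set, fold changes that involve the hypertrophic compartment are therefore given with and without replicate 1. In such bulk samples, fewer cells of a type and less RNA per cell cannot be told apart.

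Most SLRP genes lie in clusters. On build mm10 the rows of *Dcn* (chr10:97479500-97518162), *Lum* (chr10:97565501-97572703), *Kera* (chr10:97607205-97613688) and *Epyc* (chr10:97644068-97681900) follow each other on the plus strand. *Aspn* (chr13:49544443-49567562), *Omd* (chr13:49582747-49592609) and *Ogn* (chr13:49608071-49624500) form a second plus-strand cluster. *Prelp* (chr1:133910304-133921401, minus strand) and *Fmod* (chr1:134037515-134048277, plus strand) are neighbours, and *Bgn* (chrX:73483635-73495936, plus strand) lies by itself. Neighbours did not share one pattern across the compartments, as the values below show.

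RefSeq promoter windows (GRCm38.p6, 250 bases before to 50 bases after the start site) were found for 8 of the 10 genes and not for *Dcn* and *Lum*. The windows of *Epyc* and *Prelp* are shown because both genes fell from proliferative to hypertrophic libraries, and that of *Aspn* because it rose from resting to proliferative libraries. In each of these the start site coincides with the edge of the deposited row. The windows were searched on both strands for TATAAA, for AACAAT and ACAAAG (core letters bound by SOX and related HMG-box proteins, among others) and for TGTGGT (core letters bound by RUNX proteins), and every match is in capitals. The *Epyc* window is chr10:97643818-97644117 on the plus strand, the *Prelp* window chr1:133921352-133921651 on the minus strand and the *Aspn* window chr13:49544193-49544492 on the plus strand.
Epyc: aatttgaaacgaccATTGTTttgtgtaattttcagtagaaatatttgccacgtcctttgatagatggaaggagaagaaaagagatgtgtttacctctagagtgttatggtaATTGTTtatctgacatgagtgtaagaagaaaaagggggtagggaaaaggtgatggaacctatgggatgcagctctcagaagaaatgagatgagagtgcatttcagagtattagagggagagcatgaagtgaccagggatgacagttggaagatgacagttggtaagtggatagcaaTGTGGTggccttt
Prelp: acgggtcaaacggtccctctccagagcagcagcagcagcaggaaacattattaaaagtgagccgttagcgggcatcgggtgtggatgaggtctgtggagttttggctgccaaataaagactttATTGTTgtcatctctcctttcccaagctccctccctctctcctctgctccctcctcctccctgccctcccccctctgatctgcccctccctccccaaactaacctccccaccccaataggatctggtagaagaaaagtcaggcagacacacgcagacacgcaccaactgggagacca
Aspn: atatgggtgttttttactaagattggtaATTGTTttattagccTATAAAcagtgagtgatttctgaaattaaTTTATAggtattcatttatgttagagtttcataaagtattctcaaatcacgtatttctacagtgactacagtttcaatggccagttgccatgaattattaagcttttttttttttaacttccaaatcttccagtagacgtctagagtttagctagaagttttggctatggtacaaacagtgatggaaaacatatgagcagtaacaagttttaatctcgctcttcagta
AACAAT, written ATTGTT where it lies on the opposite strand, began 236 and 139 bases upstream of the start site in *Epyc*, 127 bases upstream in *Prelp* and 222 bases upstream in *Aspn*. It occurred in a window of 5 of the 8 genes (*Epyc*, *Prelp*, *Aspn*, *Kera* and *Ogn*), and in 10.7% of all 32851 RefSeq promoter windows of this length. TATAAA was present in *Aspn* and *Ogn* (13.6% of all windows), ACAAAG in *Kera* and in a second *Epyc* window that starts 3035 bases further downstream (18.7%), and TGTGGT in *Epyc* and *Ogn* (16.8%). No match to any of these was found in the windows of *Bgn*, *Fmod* and *Omd*. A match is a description of letters and not a binding site.

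The 10 genes together summed to 663 to 1350 NRPKM in WT resting, 731 to 1360 in WT proliferative, 463 to 676 in WT hypertrophic and 938 to 1490 in *aadd* libraries. The leading gene of the family differed between compartments, and within WT hypertrophic and *aadd* also between replicates. Some leads were narrow. In resting replicate 1 *Bgn* was at 165 and *Prelp* at 163 NRPKM, and in *aadd* replicate 1 *Fmod* was at 229 and *Prelp* at 221. *Bgn* led in all 3 resting libraries with 24.9 to 30.3% of the sum, and *Prelp* led in all 3 proliferative libraries with 24.9 to 31%. *Lum* led in hypertrophic replicates 1 and 3 (35.5 and 32.1%) and *Bgn* in replicate 2 (32.8%), while in *aadd* the leader was *Fmod* in replicate 1 (24.4%) and *Bgn* in replicates 2 and 3 (29.4 and 25.6%).

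**Figure D1:**
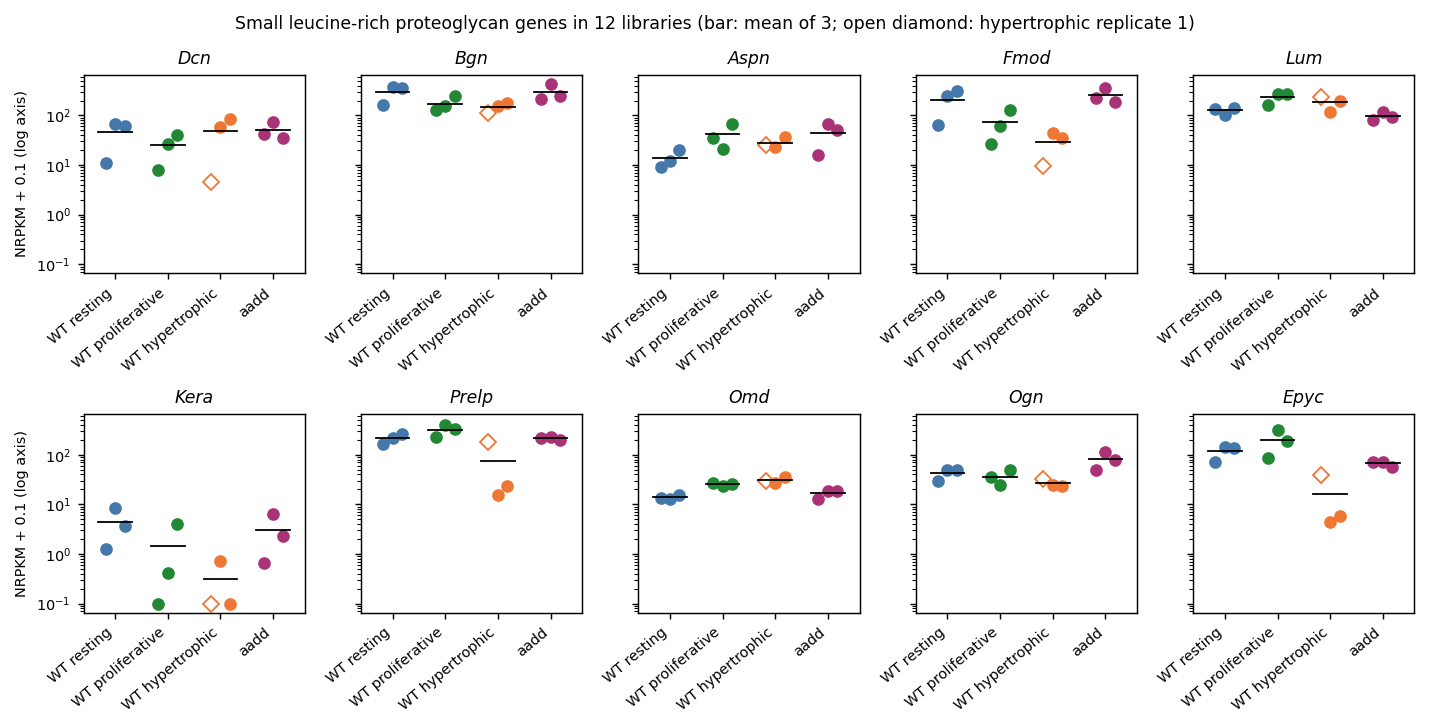
NRPKM + 0.1 on a log axis for each SLRP gene in each of the 12 libraries, grouped by compartment or genotype, with bars at the mean of 3 libraries and hypertrophic replicate 1 as an open diamond. *Prelp* and *Epyc* drop in hypertrophic replicates 2 and 3 (15 and 23.3 NRPKM, and 4.21 and 5.74 NRPKM), *Omd* shows little spread within any group, and *Dcn* has a low first replicate in each WT compartment.

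Among class I genes, *Bgn* encodes biglycan, a chondroitin or dermatan sulfate proteoglycan of bone and cartilage matrix. Its level was 165, 370 and 352 NRPKM in resting replicates 1 to 3, 126, 153 and 242 in proliferative, 113, 152 and 176 in hypertrophic and 214, 439 and 247 in *aadd* libraries. The group means descended from *aadd* and resting to proliferative and hypertrophic, but every neighbouring pair overlapped and no comparison called *Bgn*. The nearest to a call was hypertrophic against resting, with log2 FC of -0.94 (SE 0.36, limma adjusted *P* = 0.17), an FC of 1.92 that missed the limit of 2. Without hypertrophic replicate 1 the log2 FC was -0.76. *Bgn* met the criteria without resting replicate 1 (-1.32) or hypertrophic replicate 3 (-1.08), and without resting replicate 1 *Bgn* was also called lower in proliferative libraries (-1.11, against -0.73 with all).

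*Dcn* encodes decorin, which binds fibrillar collagen. It measured 10.7, 67.7 and 60.7 NRPKM in resting, 7.88, 26.5 and 39.9 in proliferative, 4.55, 58.2 and 85.5 in hypertrophic and 42.1, 73.3 and 35.5 in *aadd* libraries. The range within each WT compartment was wider than the differences between group means, and the F test across the 4 groups gave a limma adjusted *P* of 0.79. The log2 FC of hypertrophic over resting was -0.31 (SE 1.26) with all libraries and 1 without hypertrophic replicate 1, and it was positive without resting replicate 2 (0.16) or resting replicate 3 (0.08) too.

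*Aspn* encodes asporin, which carries a run of aspartate residues and binds collagen and TGF-β. Its levels were 9.14, 11.8 and 20.4 NRPKM in resting, 35.8, 21.4 and 66.4 in proliferative, 24.8, 22.9 and 36.3 in hypertrophic and 16.2, 68.4 and 51 in *aadd* libraries. All proliferative and hypertrophic libraries lay above all resting ones, although the lowest proliferative value (21.4) was close to the highest resting value (20.4). Replicate 1 of *aadd* lay inside the resting range. *Aspn* rose from resting to proliferative by a log2 FC of 1.5 (SE 0.47, limma adjusted *P* = 0.21) and from resting to hypertrophic by 1.07 (SE 0.35, limma adjusted *P* = 0.12). The call in proliferative against resting was lost without resting replicate 1 (log2 FC 1.25) or 2 (1.43). That in hypertrophic against resting was lost without resting replicate 1 (0.82), resting replicate 2 (1) or hypertrophic replicate 3 (0.87), and kept without hypertrophic replicate 1 (1.14).

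Among class II genes, *Fmod* encodes fibromodulin, a keratan sulfate proteoglycan abundant in tendon and cartilage. Its levels were 64.9, 241 and 305 NRPKM in resting, 26.8, 61.7 and 131 in proliferative, 9.4, 43.8 and 34.5 in hypertrophic and 229, 358 and 186 in *aadd* libraries. Hypertrophic libraries all lay below resting ones, while proliferative libraries overlapped both and *aadd* libraries overlapped resting ones. *Fmod* fell by 2.79 on the log2 scale from resting to hypertrophic (SE 0.79, limma adjusted *P* = 0.089), and the call held with each library left out in turn. Without hypertrophic replicate 1 the log2 FC was -2.11 (limma adjusted *P* = 0.076). Between resting and proliferative, where same-numbered libraries deviated together, the log2 FC was -1.49 (SE 0.76, limma adjusted *P* = 0.37) without the replicate block and *Fmod* was not called. With the replicate number as a block it was called lower (limma adjusted *P* = 0.089). The block uses the deposited numbers, which the study's supplementary tables give in another order, and whether a number marks a shared origin is not known. It was also called without resting replicate 1 (-2.18) or proliferative replicate 3 (-2.05).

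*Lum* encodes lumican, a keratan sulfate proteoglycan that takes part in fibril spacing. Its levels were 134, 102 and 144 NRPKM in resting, 161, 271 and 274 in proliferative, 240, 115 and 199 in hypertrophic and 81.7, 116 and 95 in *aadd* libraries. All proliferative libraries lay above all resting ones, and the log2 FC was 0.87 (SE 0.27, limma adjusted *P* = 0.21), an FC of 1.82 that did not reach 2. Without proliferative replicate 1 the log2 FC was 1.12 and met the criteria. Hypertrophic and *aadd* libraries overlapped the resting range, and the log2 FC of hypertrophic over resting was 0.49 with all libraries and 0.27 without hypertrophic replicate 1.

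*Omd* encodes osteomodulin, also called osteoadherin, a keratan sulfate proteoglycan of bone. Its level was 13.5, 12.7 and 15.6 NRPKM in resting, 26.6, 23.7 and 25.3 in proliferative, 29.9, 26.9 and 35.5 in hypertrophic and 12.7, 18.9 and 18.7 in *aadd* libraries. The 3 WT compartments did not overlap at any step, although the highest proliferative and lowest hypertrophic values (26.6 and 26.9) were close, and hypertrophic replicate 1 fell between the other 2 hypertrophic libraries. From resting to hypertrophic, *Omd* rose by a log2 FC of 1.13 (SE 0.18, limma adjusted *P* = 0.025), and by 1.15 without hypertrophic replicate 1 (limma adjusted *P* = 0.014). The call held with each library left out, but its limma adjusted *P* exceeded 0.05 without resting replicate 1 (0.065), 2 (0.11) or 3 (0.08) and without hypertrophic replicate 2 (0.063) or 3 (0.1). With no filter on low values it was 0.056, and with the replicate block 0.068. Against resting, the proliferative level had a log2 FC of 0.86 (SE 0.16, limma adjusted *P* = 0.087), an FC of 1.81 under the limit of 2. From proliferative to hypertrophic the log2 FC was 0.28 (SE 0.18, limma adjusted *P* = 0.42), and 0.29 without hypertrophic replicate 1. *Omd* also had the lowest adjusted *P* of the family in the F test across the 4 groups, 0.0089 by limma.

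*Prelp* encodes prolargin, which is basic at its N-terminus and binds heparan sulfate and collagen. Its levels were 163, 216 and 265 NRPKM in resting, 226, 392 and 338 in proliferative, 183, 15 and 23.3 in hypertrophic and 221, 230 and 194 in *aadd* libraries. Hypertrophic replicate 1 lay within the resting range, whereas replicates 2 and 3 were below every other library. *Prelp* fell by 2.95 on the log2 scale from proliferative to hypertrophic (SE 0.92, limma adjusted *P* = 0.19) and fell by 2.39 from resting to hypertrophic (SE 0.91, limma adjusted *P* = 0.16). Without hypertrophic replicate 1 these were -4.05 and -3.49 (limma adjusted *P* = 0.0052 and 0.0018). The first call was lost without proliferative replicate 2 (-2.79), proliferative replicate 3 (-2.89) or hypertrophic replicate 3 (-2.56). The second was lost without resting replicates 1 (-2.58), 2 (-2.37) or 3 (-2.23) and without hypertrophic replicates 2 (-1.69) or 3 (-2).

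*Kera* encodes keratocan, best known from cornea, and was the lowest of the family. It measured 1.18, 8.38 and 3.54 NRPKM in resting, 0, 0.311 and 3.83 in proliferative, 0, 0.634 and 0 in hypertrophic and 0.553, 6.3 and 2.16 in *aadd* libraries. By an estimate from exon length these were at most 45.9 reads, and *Kera* was not tested. The hypertrophic libraries all lay below the resting ones.

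Of the class III genes, *Epyc* encodes epiphycan, a dermatan sulfate proteoglycan of epiphyseal cartilage. Its levels were 71.7, 144 and 135 NRPKM in resting, 84.7, 311 and 186 in proliferative, 38.7, 4.21 and 5.74 in hypertrophic and 71.7, 71.8 and 57.5 in *aadd* libraries. All hypertrophic libraries were below all others, and replicates 2 and 3, at an estimated 34.9 and 43.7 reads, were far below replicate 1. *Epyc* fell by 4.1 on the log2 scale from proliferative to hypertrophic (SE 0.92, limma adjusted *P* = 0.15), and fell by 3.49 from resting to hypertrophic (SE 0.84, limma adjusted *P* = 0.063). Among the 9 genes tested these were the largest changes in either comparison. Without hypertrophic replicate 1 they were -5.08 and -4.48 (limma adjusted *P* = 0.0089 and 0.0016), and both calls held with each library left out in turn. Without proliferative replicate 1, *Epyc* was also called higher in proliferative than in resting libraries (log2 FC 1.11, against 0.61 with all libraries).

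*Ogn* encodes osteoglycin, also called mimecan, a small proteoglycan found in bone and other connective tissue. Its levels were 28.9, 48.7 and 49.9 NRPKM in resting, 35.3, 24.3 and 48.6 in proliferative, 32, 24.2 and 23.7 in hypertrophic and 49.4, 113 and 78.5 in *aadd* libraries. The WT compartments overlapped one another, and *aadd* replicate 1 lay within the resting range while the other 2 *aadd* libraries were above it. No comparison between WT compartments called *Ogn*. Its log2 FC of hypertrophic over resting was -0.64 with all libraries and -0.78 without hypertrophic replicate 1.

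**Figure D2:**
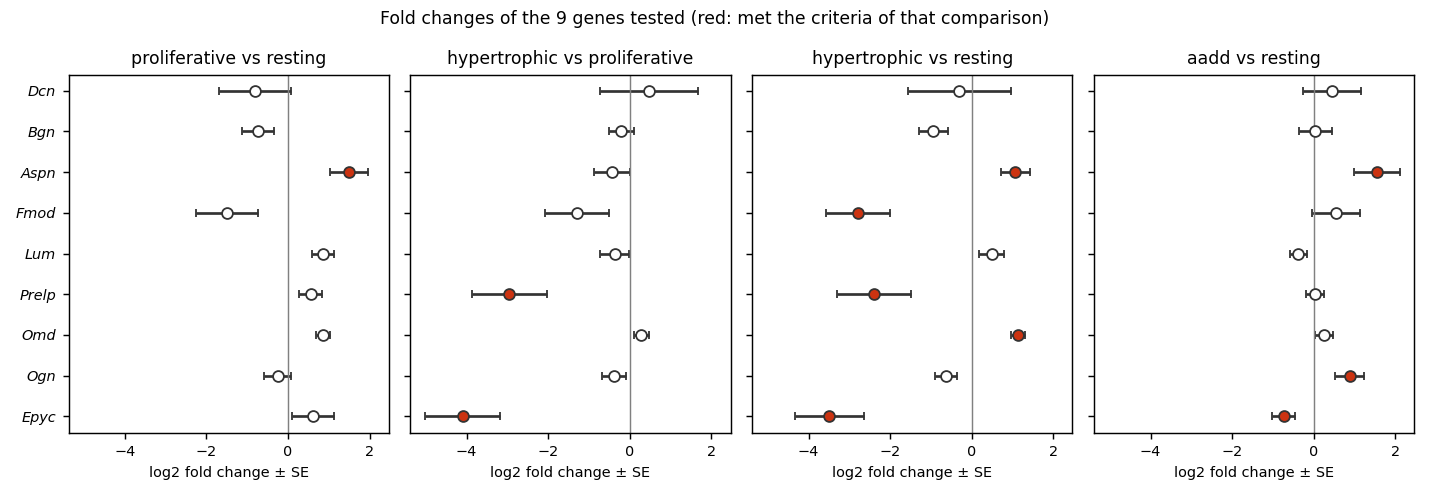
Log2 FC ± SE from limma, with 3 libraries per group, for the 9 SLRP genes tested in each of 4 comparisons, with red points for genes that met the criteria. *Prelp* and *Epyc* lie far below 0 in both hypertrophic comparisons (-2.95 and -4.1 against proliferative), and the error bars of *Dcn* are among the widest.

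Between WT resting and WT proliferative compartments, 1 of the 9 genes tested, *Aspn*, was called, and it was higher (5.53% of all genes tested were called in this comparison, 2.56% as higher and 2.97% as lower). With the replicate block, 2 were called, *Aspn* higher and *Fmod* lower (671 of all 10936 genes tested were called). *Aspn*, *Omd* and *Lum* did not overlap between the groups and were all higher in proliferative libraries (24% of all genes tested did not overlap in either direction). The median log2 FC of the 9 genes was 0.56, beside -0.06 over all genes tested.

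Between proliferative and hypertrophic compartments, 2 of the 9 genes, *Prelp* and *Epyc*, were called and both fell (9.67% of all genes tested were called, 5.32% as higher and 4.34% as lower). No gene of the table had a limma adjusted *P* under 0.05 with all 6 libraries, whereas 1057 met the unadjusted criteria. Without hypertrophic replicate 1, *Prelp* and *Epyc* passed adjustment, as did 17.4% of all genes. The median log2 FC of the 9 was -0.39, beside 0.04 over all genes. Relative to the proliferative mean on the log2 scale, *Prelp* was at -0.76 in hypertrophic replicate 1, -4.36 in replicate 2 and -3.73 in replicate 3, and *Epyc* at -2.13, -5.3 and -4.86. Both were thus lower in replicates 2 and 3 than in replicate 1. *Dcn* went opposite ways, at -2.13 in replicate 1 and 1.51 and 2.07 in replicates 2 and 3. Among the genes tested, *Prelp*, *Omd* and *Epyc* did not overlap (24.2% of all genes). On the log2 scale the mean of replicates 2 and 3 minus replicate 1 was 0.05 for *Omd*, 0.22 for *Aspn*, -0.42 for *Ogn*, 0.53 for *Bgn* and -0.66 for *Lum*, smaller than for *Fmod* (2.04), *Epyc* (-2.95), *Prelp* (-3.28) and *Dcn* (3.92). Without hypertrophic replicate 1, the log2 FC over proliferative was 1.79 for *Dcn* (0.48 with all libraries), -0.03 for *Bgn* (-0.21) and -0.63 for *Fmod* (-1.3). It was -0.59 for *Lum* (-0.37), -0.53 for *Ogn* (-0.39) and -0.36 for *Aspn* (-0.43). None of these genes was called with or without that replicate. In replicates 2 and 3, where *Prelp* and *Epyc* were lowest, the chondrocyte marker sum was lower and the osteoclast, endothelial and osteoblast sums were higher than in replicate 1, and their part in these differences was not tested.

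**Figure D3:**
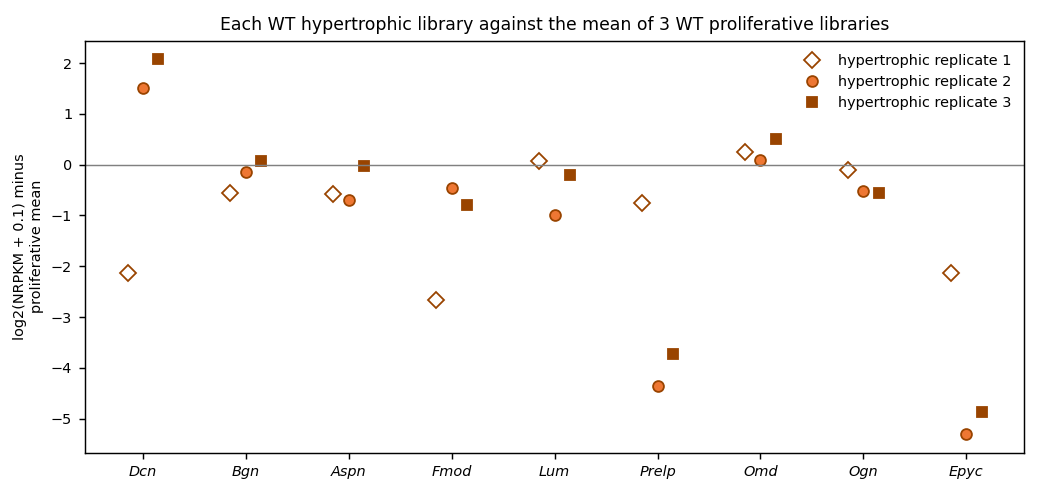
Log2(NRPKM + 0.1) of each WT hypertrophic library minus the mean of the 3 WT proliferative libraries, for the 9 SLRP genes tested, with replicate 1 as open diamonds, replicate 2 as circles and replicate 3 as squares. *Prelp* and *Epyc* are lower in replicates 2 and 3 (-4.36 and -3.73, and -5.3 and -4.86) than in replicate 1 (-0.76 and -2.13), and *Dcn* and *Fmod* are lowest in replicate 1.

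From resting to hypertrophic compartments, 5 of the 9 genes were called: *Omd* and *Aspn* higher, and *Fmod*, *Prelp* and *Epyc* lower (13% of all genes tested were called, 5.84% as higher and 7.2% as lower). *Omd* had a limma adjusted *P* under 0.05 (6.36% of all genes did), and without hypertrophic replicate 1 *Omd*, *Prelp* and *Epyc* did (24.2% of all genes did). Libraries did not overlap for *Omd*, *Aspn*, *Fmod* and *Epyc* among the genes tested (32% of all genes), nor for *Kera*, which was not tested. This comparison shares its resting libraries with that of proliferative and resting compartments and its hypertrophic libraries with the one above, so the 3 sets of calls are not separate evidence.

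In hypertrophic against resting libraries, no cluster held calls in opposite directions. On chromosomes 13 and 10, some genes of the cluster were not called. On chromosome 13, *Aspn* and *Omd* were higher in hypertrophic than in resting libraries and their neighbour *Ogn* had a log2 FC of -0.64 (SE 0.27, limma adjusted *P* = 0.2). On chromosome 10, *Epyc* was lower while *Lum* had a log2 FC of 0.49 (SE 0.31, limma adjusted *P* = 0.36) and *Dcn* -0.31. On chromosome 1, both *Prelp* and *Fmod* were lower. The row of *Cenpp*, on the opposite strand and at 3.98 to 17.2 NRPKM, spans those of *Aspn*, *Omd* and *Ogn*, and the row of *Gm10754*, also on the opposite strand, overlaps the 3′ end of *Epyc*. Use of strand in counting is not given in the sources used here, so reads in the bases that such pairs share cannot be told apart.

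By the deposited numbering, *Dcn*, *Bgn* and *Fmod* had their lowest value in replicate 1 of each of the 3 WT compartments. So did *Kera*, although hypertrophic replicates 1 and 3 were tied at 0. Of all genes tested, 3.44% had this property, and so did 3 of the 9 SLRP genes tested. In *Dcn* the resting replicate 1 was at 10.7 NRPKM beside 67.7 and 60.7, and in *Fmod* at 64.9 beside 241 and 305. With ties counted, 3 of 10 perichondrial and fibroblast markers (*Postn*, *Col12a1* and *Col14a1*), 2 of 8 tendon, 2 of 8 endothelial, 2 of 8 osteoblast and 1 of 8 skeletal muscle markers and 1 of 8 fibrillar collagens (*Col1a1*) had it. No chondrocyte, hypertrophic chondrocyte or osteoclast marker did, and *Prrx1*, also of the perichondrial list, was highest in replicate 1 of all 3 compartments. The counts include the endothelial marker *Cldn5*, at 0 in all proliferative libraries, and the osteoblast marker *Bglap2*, at 0 in all resting and proliferative libraries. Their ties there give no order of replicates. The sum of 10 perichondrial and fibroblast markers was 311 NRPKM in resting replicate 1 against 406 and 383, 288 in proliferative replicate 1 against 228 and 443, and 253 in hypertrophic replicate 1 against 370 and 419. The sum of 8 tendon markers was lowest in replicate 1 of each WT compartment, at 63.9, 45.5 and 48.3 NRPKM, with the other WT libraries at 56.1 to 112. Not all tendon markers went this way: *Scx* and *Mkx* were each highest in replicate 1 of 2 WT compartments and lowest in replicate 1 of the other. Whether these cell types contribute to the spread of *Dcn* and *Fmod* was not tested.

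**Figure D4:**
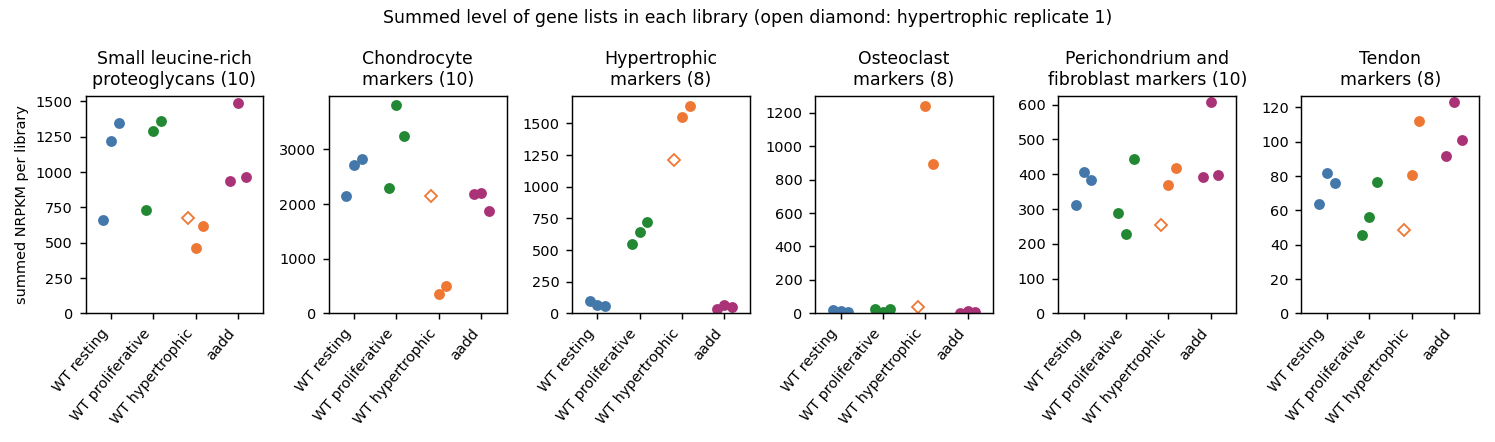
Summed NRPKM per library of the 10 SLRP genes and of 5 marker lists, on axes that start at 0, with hypertrophic replicate 1 as an open diamond. The chondrocyte sum is 363 and 497 in hypertrophic replicates 2 and 3 and at least 1880 elsewhere, and the osteoclast sum is 1240 and 894 in those libraries and at most 36.3 elsewhere.

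In *aadd* against WT resting libraries, 3 of the 9 genes were called, *Ogn* and *Aspn* higher and *Epyc* lower (6.56% of all genes tested were called, 3.78% as higher and 2.78% as lower). *Ogn* rose by a log2 FC of 0.88 (SE 0.35, limma adjusted *P* = 0.5) and *Aspn* by 1.55 (SE 0.56, limma adjusted *P* = 0.44). *Epyc* fell by 0.74 (SE 0.29, limma adjusted *P* = 0.48). Libraries overlapped for all 9 genes tested (15.4% of all genes did not overlap). Among those called, *aadd* replicate 1 was at 49.4 in *Ogn* and 16.2 in *Aspn*, inside the resting ranges, and resting replicate 1 was level with *aadd* in *Epyc* at 71.7 NRPKM.

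None of these 3 calls held with every library left out. *Ogn* and *Aspn* were not called without resting replicate 1 (log2 FC 0.62 and 1.3), resting replicate 2 (1 and 1.49), *aadd* replicate 2 (0.59 and 1.14) or *aadd* replicate 3 (0.85 and 1.35). *Epyc* was not called without resting replicate 2 (-0.56) or 3 (-0.61), or without *aadd* replicate 1 (-0.8), 2 (-0.8) or 3 (-0.64). The perichondrial and fibroblast markers summed to 393 to 607 NRPKM in *aadd* and to 311 to 406 in resting libraries. The tendon markers summed to 91.6 to 123 against 63.9 to 81.8, and the 8 skeletal muscle markers to 16.1 to 54.5 against 5.4 to 9.11. The first of these 3 sums overlapped between the groups and the other 2 did not. Replicate 2 was the highest *aadd* library in *Aspn*, in *Ogn* and in all 3 sums. That trait was not particular to them, since it held for every SLRP gene and every marker list. For example, the chondrocyte sum was 2210 NRPKM in *aadd* replicate 2 and the osteoclast sum 14.6. The part of these cell types in the calls was not tested. The other tested genes had log2 FC between -0.38 (*Lum*) and 0.55 (*Fmod*). The estimates for *Fmod* (-0.13), *Dcn* (-0.42), *Bgn* (-0.34) and *Prelp* (-0.16) were below 0 without resting replicate 1.

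Across all 12 libraries, limma's F test called *Omd*, *Epyc* (adjusted *P* = 0.016) and *Fmod* (adjusted *P* = 0.039), 3 of the 9 genes tested (13.8% of all genes). *Ogn* (0.054), *Prelp* (0.055) and *Lum* (0.06) had adjusted *P* just above the limit, and *Bgn* and *Aspn* were both at 0.18. *Omd* was called with any library left out. *Epyc* was not called without hypertrophic replicate 2 (0.066) or 3 (0.079). The call of *Fmod* was lost with no filter on low values and in 8 cases with a library left out. These were without resting replicate 2 (0.074) or 3 (0.066), proliferative replicate 2 (0.064), hypertrophic replicate 2 (0.06) or 3 (0.089), or *aadd* replicate 1 (0.081), 2 (0.085) or 3 (0.071). *Prelp* was called without hypertrophic replicate 1 (limma adjusted *P* = 6.9e-05). *Lum* was called without hypertrophic replicate 1 (0.036) or 2 (0.035) or proliferative replicate 1 (0.037), and *Ogn* without resting replicate 1 (0.049), hypertrophic replicate 1 (0.039) or *aadd* replicate 1 (0.039).

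Of 8 further SLRP genes, 5 passed the filter. *Chad*, which encodes chondroadherin, was lower in hypertrophic than in proliferative libraries (log2 FC -1.25, limma adjusted *P* = 0.25), and *Chadl*, its paralog, was too (-2.32, adjusted *P* = 0.16). Both were at their lowest in hypertrophic replicates 2 and 3 (37.6 and 68.1 NRPKM for *Chad*, 3.5 and 4.52 for *Chadl*), with replicate 1 at 136 and 17.3. Against resting libraries *Chad* (-1.63), *Chadl* (-2.61) and *Ecm2* (-1.3) were lower. Leaving out hypertrophic replicate 1, these were -1.73 and -3.02 for *Chad* and *Chadl* against proliferative, and -2.11, -3.31 and -1.35 for the 3 genes against resting. The calls of *Chadl* held with each library left out. *Chad* was not called against proliferative without any 1 of the other 5 libraries (-0.8 to -1.38) or against resting without resting replicate 3 (-1.46), nor *Ecm2* without resting replicates 2 (-1.2) or 3 (-0.89) or hypertrophic replicates 2 (-1.34) or 3 (-1.2). With all libraries, none of the 5 was called in proliferative or *aadd* against resting. *Tsku* and *Podn* were called in no comparison with all libraries. In hypertrophic libraries, *Podn* was called lower without hypertrophic replicate 1 (-1.68 against proliferative and -1.54 against resting). It was also called lower without proliferative replicate 1 (-1.44) or resting replicate 1 (-1.51). Against resting, *Tsku* was called lower in proliferative libraries without resting replicate 1 (-1.06) or proliferative replicate 1 (-1.04) or 3 (-1.08). It was called lower in hypertrophic libraries without resting replicate 1 (-1.08) or hypertrophic replicate 3 (-1.21), and in *aadd* without resting replicate 1 (-0.61). *Podnl1* did not pass the filter but was at 33.9 and 32 NRPKM in hypertrophic replicates 2 and 3, 1.93 in replicate 1 and at most 4.36 elsewhere. *Nyx* and *Optc* did not exceed 3.95 NRPKM in any library.

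The fibrillar collagens, to which SLRPs bind, were all tested. From resting to hypertrophic, *Col1a1* (log2 FC 1.58, limma adjusted *P* = 0.12), *Col1a2* (1.4, adjusted *P* = 0.14) and *Col5a2* (1.86, adjusted *P* = 0.041) rose, and *Col2a1* (-1.39, adjusted *P* = 0.15) and *Col11a2* (-1.19, adjusted *P* = 0.13) fell, 5 of 8 genes (13% of all genes tested were called). From proliferative to hypertrophic, *Col5a2* rose and *Col2a1*, *Col11a1* and *Col11a2* fell. *Col2a1*, the main collagen of cartilage, was 898 NRPKM in hypertrophic replicate 1 and 245 and 343 in replicates 2 and 3. With hypertrophic replicate 1 left out, the changes from resting were 2.04, 1.88 and 2.07 for *Col1a1*, *Col1a2* and *Col5a2* and -1.93 and -1.31 for *Col2a1* and *Col11a2*. Those from proliferative were 1.83 for *Col5a2* and -2.13, -1.39 and -1.33 for *Col2a1*, *Col11a1* and *Col11a2*. *Col11a1* was then also lower than in resting (-1.01), and *Col1a1* (1.69) and *Col1a2* (1.66) higher than in proliferative libraries. Of these collagens, *Col5a2* was called in both comparisons with each library left out, and the calls of the others were lost without at least 1 of the other libraries. No fibrillar collagen was called with all libraries in proliferative or *aadd* against resting. Of 10 enzymes that build or sulfate the glycosaminoglycan chains, *Chst1*, a keratan sulfate sulfotransferase, was higher in proliferative (log2 FC 1.8, limma adjusted *P* = 0.22) and hypertrophic (2.91, adjusted *P* = 0.018) than in resting libraries. *Xylt1*, which starts chain synthesis on the core protein, was lower in hypertrophic libraries than in resting (log2 FC -1.4, limma adjusted *P* = 0.063) and proliferative ones (-1.21, adjusted *P* = 0.17), and lower in *aadd* than in resting (-0.73, adjusted *P* = 0.41). When hypertrophic replicate 1 was left out, *Chst1* was at 3.06 against resting and *Xylt1* at -1.72 against resting and -1.53 against proliferative. These hypertrophic calls held with each library left out. *Chst1* in proliferative libraries was not called without resting replicates 1 (1.7) or 2 (1.5) or proliferative replicate 1 (1.29), nor *Xylt1* in *aadd* without resting replicates 2 (-0.64) or 3 (-0.6) or *aadd* replicate 3 (-0.57). With all libraries, the other 8 enzymes were not called in any of the 4 comparisons. Of all genes tested, 5.53% were called in proliferative against resting and 9.67% in hypertrophic against proliferative libraries. The share was 13% in hypertrophic and 6.56% in *aadd* against resting libraries.

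The genes whose pattern over the 12 libraries was most like that of each SLRP gene were found by the root mean square (RMS) difference between centred log2 profiles. *Prelp* was nearest to *Matn3*, a cartilage matrix gene (RMS 0.234), then to *Ncmap* (0.294) and *Zim1* (0.31). *Epyc* was nearest to *Gm10754* (0.417), the row that overlaps it, then to *Mfi2* (0.464) and *Sfrp5* (0.496), and *Prelp* was the 7th most alike to it (0.563). *Fmod* was nearest to *Col14a1*, a collagen of perichondrium and tendon (0.439), and *Igfbp7* (0.594). *Omd* had close matches in *Bak1* (0.196), *Iscu* (0.208) and *Shfm1* (0.213). *Bgn* lay nearest to *Pkd1* (0.258), *Lum* to *Gm20594* (0.262), *Ogn* to *Hspb6* (0.288) and *Aspn* to *Gm10941* (0.536). *Dcn* had no closer match than *Sec16b* (0.668), the widest gap of the 9. The 12 libraries share their replicate spread in these measures, which are descriptions.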

How the data were processed

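RNA-Seq was performed by the authors on LCM samples after NuGen Ovation V2 amplification and Nextera library preparation. Per the submitters' processing notes, reads were aligned with TopHat to mm10. In GeneSpring, the authors filtered out reads of low quality, with several alignments or in duplicate, and deposited normalized RPKM (NRPKM) on a linear scale. The removal of duplicates can compress high values. Scaling between libraries and use of strand are not given in the sources used here.

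Tests used limma 3.58.1 in R 4.3.3 (moderated statistics, no covariate, 6 libraries per comparison, 12 for the F test) on log2(NRPKM + 0.1). FC on this scale understates changes of low genes. A gene entered when 3 or more of the 12 libraries reached 5 NRPKM. Python 3.11.15 was used for tables (pandas 2.3.3, numpy 2.4.6) and plots (matplotlib 3.10.9). The procedure was tested on simulated data. Counts were not used here. The most frequent value of 1795 short sensory receptor and keratin-associated genes was taken as 1 read, worth 0.309 to 0.53 NRPKM per kilobase, and reads per gene are estimates from it that cover counting error only.

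The genes named are all SLRP genes, those of fixed lists (other SLRPs, fibrillar collagens, glycosaminoglycan enzymes, cell type markers), and the 3 tested genes most like each. The members and lists were chosen with earlier results of these data known. The methods give 3 samples per group, and the paper speaks of 3 independent sets of compartments without saying which libraries form a set. Nothing ties a library to single embryos, so *P* measures the spread between these samples. Deviations of same-numbered resting and proliferative libraries from their group means correlated across genes (*r* = 0.281, 0.179 and 0.198), so the replicate block is given beside results it changes in that comparison. The other group pairs did not all exceed 0.1. Alternatives were each library left out, the replicate block, 1 fit over all 12 libraries, quantile normalization, median-of-ratios rescaling, no filter and a pseudocount of 1.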

Additional observations from a re-analysis of the deposited data

How the results depend on the processing

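Over 36 pairwise single-gene comparisons and 432 alternatives, 372 kept direction and side of the threshold, 37 lost a call, 9 gained one and 14 changed sign. All sign changes came from leaving out 1 library. The log2 FC of *Dcn* in hypertrophic against proliferative libraries ranged from -0.31 to 1.79, with negative values without proliferative replicate 1 (-0.19) and hypertrophic replicates 2 (-0.03) and 3 (-0.31). In hypertrophic against resting it ranged from -1.17 to 1, positive without resting replicates 2 (0.16) and 3 (0.08) and hypertrophic replicate 1 (1). *Bgn* in hypertrophic against proliferative ranged from -0.41 to 0.06 (without proliferative replicate 3), and *Ogn* in proliferative against resting from -0.51 to 0.01 (without proliferative replicate 2). In *aadd* against resting the ranges were -0.42 to 0.91 for *Dcn*, -0.34 to 0.24 for *Bgn*, -0.13 to 0.98 for *Fmod* and -0.16 to 0.19 for *Prelp*, with the lowest value of these 4 genes without resting replicate 1, and without *aadd* replicate 2 *Bgn* gave -0.28 and *Prelp* -0.02. With no filter, calls over all genes were 1495 for proliferative against resting, 1929 for hypertrophic against proliferative, 2537 for hypertrophic against resting, 1267 for *aadd* and 907 for the F test, where more genes of low level were tested, and no SLRP gene (0) was called in *aadd*. The replicate block gave 2 SLRP calls in proliferative against resting, with 671 calls over all genes, and reduced the genes past adjustment there from 68 to 9. It also made *Fmod* called lower in hypertrophic against proliferative libraries and removed the calls of *Prelp* in hypertrophic and *Epyc* in *aadd* against resting. Quantile normalization left 1 SLRP call in *aadd*, where 731 of all 10917 genes tested were called. A pseudocount of 1 gave 6 SLRP calls in the F test, where 1678 of all genes (15.3%) were called. *Prelp* in hypertrophic against resting was also not called with no filter, and *Aspn* there in the fit over all 12 libraries. In *aadd*, *Ogn* was not called after rescaling or quantile normalization, nor *Epyc* after quantile normalization or in the fit over all 12 libraries. The cause of these changes was not tested. With 1 library left out, calls over all genes ranged from 508 to 809, 658 to 2007, 1196 to 2105, 547 to 997 and 628 to 3074 in these 5 tests, and SLRP calls from 0 to 3, 1 to 2, 3 to 5, 0 to 2 and 1 to 6. Calls that were higher made up 46.3% in proliferative against resting, 62.9% with no filter and 35.8% without proliferative replicate 1. With 3 libraries a group, and hypertrophic replicate 1 unlike replicates 2 and 3, small differences could not be resolved. *Kera*, at no more than 45.9 estimated reads, was too low to test.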
